A study of Homo sapiens with 12 samples.

Results

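The genes described here are 9 that p53 is known to control or that act beside it in growth arrest and cell death, followed in MDA-MB-231 breast cancer cells. They were MDM2, GADD45A, GADD45B, BTG1, BTG2, FAS, TNFRSF10B, BBC3 and PMAIP1, taken by symbol. Every probe set whose annotation gives 1 of these symbols alone was used, which covered 7 of the 9 genes with 21 probe sets, out of 11963 genes and 22215 probe sets in the series. BTG2 and BBC3 had no probe set with a single symbol and are not analysed here.

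MDA-MB-231 is an established human line of the triple-negative, mesenchymal kind, and RNA of 12 samples of it was hybridised to Affymetrix arrays, 1 array per sample. The 4 groups of 3 were HDAC5 shRNA, the scramble shRNA set with no tag, LSD1 shRNA, and the scramble shRNA set tagged (LSD1). HDAC5 belongs to the class IIa histone deacetylases and LSD1, encoded by KDM1A, to the histone lysine demethylases. The comparisons address which transcripts change with an shRNA against either enzyme. An effect of an shRNA on other targets and loss of the enzyme cannot be told apart. Neither can be told apart from a level particular to the scramble set used as control. All groups were given commercial lentiviral particles per the treatment protocol, although the titles and characteristics call the cells transfected, and the labels name neither the hairpins nor whether cells were pools or clones. Comparisons were made within an experiment, each shRNA against 3 scramble arrays, the untagged set being taken as that of HDAC5 because the other one carries the LSD1 tag and because of the order in the design text.

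In cells with intact p53, stress stabilises the protein, which then binds DNA and switches on genes for arrest, repair and apoptosis. One of its targets, MDM2, encodes the ubiquitin ligase that returns p53 to a low level. MDA-MB-231 cells carry mutant p53, and p53 activity was not measured here. Many of the 9 genes also answer to other inputs: GADD45A, TNFRSF10B and PMAIP1 are known targets of the ATF4 and CHOP stress factors, and FAS and GADD45B of NF-kappaB.

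RefSeq promoter windows (GRCh38.p14, 250 bases before to 50 after an annotated start) were found for 7 of the 9 genes, 12 windows in all, and 3 are shown. GADD45A and TNFRSF10B had no window. The FAS window is shown because FAS was higher on all of its probe sets with either shRNA, and the BTG1 and PMAIP1 windows because both genes responded differently to the 2 shRNAs. The windows shown all hold a match to a motif searched. MDM2 and GADD45B also responded differently, on 1 probe set each. Their windows and the other FAS windows hold no match and are not shown. Each runs 5′ to 3′ on the strand of the gene. Capitals mark a match to the p53 decamer, the repeat unit of p53 response elements, in FAS, and to CGTCA, the core of the cAMP response element bound by the CREB and ATF families, in the other two.
FAS promoter, chr10:88991181-88991480, plus strand: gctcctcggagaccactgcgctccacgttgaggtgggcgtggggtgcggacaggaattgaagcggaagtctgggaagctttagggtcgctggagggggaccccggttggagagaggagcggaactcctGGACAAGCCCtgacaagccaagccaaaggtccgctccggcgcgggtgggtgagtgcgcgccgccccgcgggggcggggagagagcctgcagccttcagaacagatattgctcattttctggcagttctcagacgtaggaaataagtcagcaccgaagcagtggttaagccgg
BTG1 promoter, chr12:92145797-92146096, minus strand: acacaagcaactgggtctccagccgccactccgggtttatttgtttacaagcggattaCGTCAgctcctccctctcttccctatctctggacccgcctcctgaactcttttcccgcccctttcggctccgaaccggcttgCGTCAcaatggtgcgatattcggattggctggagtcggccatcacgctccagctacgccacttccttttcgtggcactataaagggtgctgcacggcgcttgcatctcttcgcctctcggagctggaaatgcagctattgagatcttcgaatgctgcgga
PMAIP1 promoter, chr18:59899746-59900045, plus strand: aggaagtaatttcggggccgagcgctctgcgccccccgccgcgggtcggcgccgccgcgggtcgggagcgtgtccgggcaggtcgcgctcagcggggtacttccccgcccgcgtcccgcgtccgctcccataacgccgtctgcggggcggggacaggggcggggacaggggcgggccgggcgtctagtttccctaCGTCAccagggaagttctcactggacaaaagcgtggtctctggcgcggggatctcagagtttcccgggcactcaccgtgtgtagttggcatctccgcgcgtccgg
The motifs were searched on both strands and were chosen with results known. An exact match to the p53 decamer, RRRCWWGYYY (R is A or G, W is A or T, Y is C or T), was present in 1 of the 3 FAS windows. It lay at -122 from the annotated start. No window of the other genes held an exact match, and 6.63% of the 35116 windows of the table did. Near matches were not searched, so a window without an exact match can still hold a p53 element. CGTCA was matched 2 times in the BTG1 window, 1 time in the PMAIP1 window and 1 time in that of BTG2, and was present in 24.6% of all windows. TGATGNAAN, the shared letters of the composite C/EBP-ATF element, was present in 0 of the 12 windows and in 3.61% of all windows. The 12 include no window of GADD45A or TNFRSF10B. A match is a description of the letters only.

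Both knockdowns were seen on the arrays. HDAC5 (202455_at) was 6.17, 6.19 and 6.50 on the HDAC5 shRNA arrays, against 7.56, 7.42 and 7.22 on their scramble arrays (log2 change -1.11, SE 0.11, adjusted p = 4.72e-05). KDM1A (212348_s_at) was 6.48, 6.81 and 6.60 on the LSD1 shRNA arrays, against 9.61, 9.76 and 9.78 on theirs (-3.08, SE 0.12, adjusted p = 5.42e-05). The mesenchymal markers VIM, CD44, CAV1 and AXL lay above the upper quartile of all 12 arrays, PGR and PTPRC below the lower quartile of all 12, and ESR1, CDH1, CD3E and CD14 below the median of all 12. HBB lay below the median on 10 arrays. ERBB2, also on the list of low markers, lay between 8.15 and 9.17, above the median on all 12. Within groups the arrays correlated between 0.9907 and 0.9990. The median SD over probe sets was 0.07 and 0.069 in the HDAC5 shRNA group and its scramble set, and 0.127 and 0.106 in the LSD1 shRNA group and its scramble set.

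With HDAC5 shRNA, FAS rose on each of its probe sets while GADD45A, BTG1 and the death receptor gene TNFRSF10B fell on each of theirs. GADD45A fell furthest, 2.24-fold. GADD45B and MDM2 rose by small amounts on some of their probe sets, and PMAIP1 fell by a small amount. Of the 21 probe sets, 7 rose, 8 fell and 6 did not pass an adjusted p of 0.05 (limma, adjusted over all 22215 probe sets). This was 71.4% of them, against 38.2% of all probe sets, of which 19.0% rose and 19.2% fell. HDAC5 shRNA and scramble arrays were separate on 15 of the 21, against 46.0% of all probe sets. In 1 fit of all 12 arrays, with 1 estimate of the spread for both experiments, 11 of the 21 passed, against 24.9% of all probe sets. The median change of the 21 was 0.06, since the members moved both ways, and their median absolute change was 0.29, against 0.13 over all probe sets.

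With LSD1 shRNA, FAS and PMAIP1 were higher than with its scramble on every array, by 0.46 to 0.76 on the log2 scale, and GADD45A, GADD45B and BTG1 overlapped between the groups. None of these passed: 0 of the 21 probe sets had an adjusted p under 0.05, against 3.81% of all probe sets. In 1 fit of all 12 arrays, where both experiments share 1 estimate of the spread, 7 of the 21 passed (the 4 of FAS, both of PMAIP1 and MDM2 217542_at), against 15.7% of all probe sets. The arrays of the HDAC5 experiment spread less (median SD 0.07 and 0.069, against 0.127 and 0.106 in the LSD1 experiment). The shared estimate can thus be too small for LSD1 shRNA. Values of the shRNA and scramble arrays were separate on 8 of the 21, against 24.5% of all probe sets. These 8 were the 4 of FAS and both of PMAIP1, higher on the LSD1 shRNA arrays, and 1 each of MDM2 and TNFRSF10B, lower on them. At an unadjusted p under 0.05 (limma), 7 of these 8 passed, all but that of TNFRSF10B, and no other member probe set did. Of all 22215 probe sets, 4373 had such a p. Separate arrays tend to give a low p, so this count adds little to the separation. The median absolute change of the 21 was 0.18, against 0.117 over all probe sets.

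The response to HDAC5 shRNA differed from that to LSD1 shRNA on 7 of the 21 probe sets, or 33.3%, against 26.9% of all probe sets, in 1 fit of the 12 arrays. The 7 belong to MDM2, GADD45A, GADD45B, BTG1 and PMAIP1, and FAS and TNFRSF10B gave none. The plot of values by array shows the members in all groups, and the plot of changes sets both responses and their difference side by side.

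**Figure D1:**
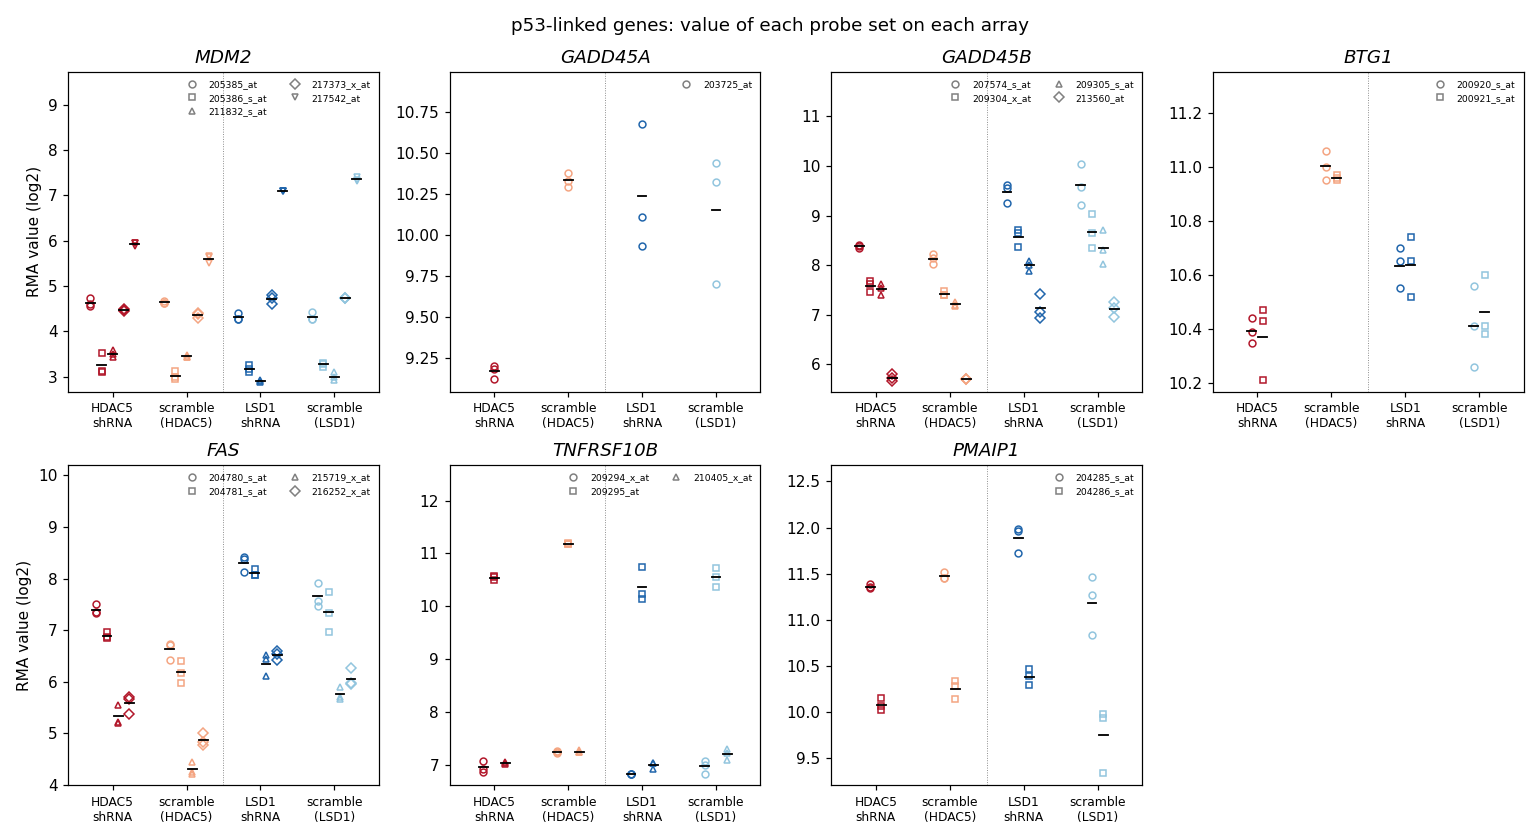
RMA values (log2, vertical axes, each panel with its own range) of the 21 probe sets of 7 genes on each of the 12 arrays; symbols are probe sets, colours are groups and bars are means of 3 arrays. GADD45A and BTG1 sit lower with HDAC5 shRNA than on its scramble arrays, and FAS sits higher with each shRNA than on the scramble arrays of the same experiment.

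**Figure D2:**
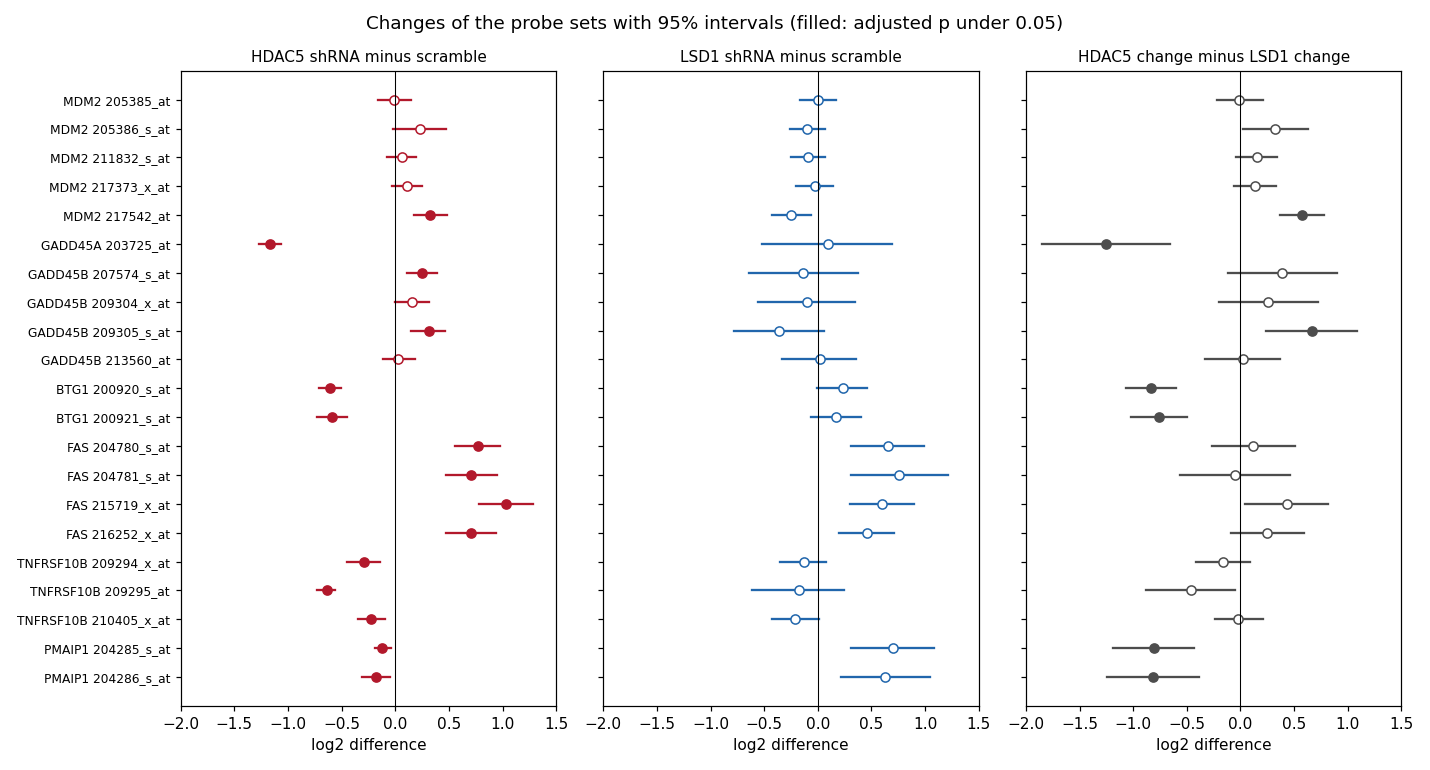
Log2 change of each probe set with its 95% interval for HDAC5 shRNA, for LSD1 shRNA and for the first minus the second; filled points had an adjusted p under 0.05. In the left panel 15 of 21 points are filled, in the middle panel 0 and in the right panel 7.

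The signal of MDM2 was dim on most of its probe sets. On 3 of its 5 probe sets, 205386_s_at, 211832_s_at and 217373_x_at, the mean of every group lay below the lower quartile of the arrays, which was 4.59 to 4.65 in the HDAC5 experiment and 5.18 to 5.26 in the LSD1 experiment. Another, 205385_at, lay at about that level in the HDAC5 experiment and below it in the other. Changes of these 4 ran between -0.01 and 0.23 with HDAC5 shRNA and between -0.10 and 0.00 with LSD1 shRNA, and none passed. The brighter probe set 217542_at was 5.94, 5.89 and 5.94 with HDAC5 shRNA, against 5.64, 5.50 and 5.66 with its scramble. It rose by 0.32 (SE 0.07, adjusted p = 0.0043), with no overlap. With LSD1 shRNA the same probe set was 7.10, 7.09 and 7.10, against 7.33, 7.41 and 7.31 with its scramble, all below the scramble arrays. That change of -0.25 (SE 0.08) had an adjusted p of 0.138, and the difference of 0.57 between the 2 responses passed (SE 0.10, adjusted p = 0.000991). The mean of the 5 probe sets was at 0.14 with HDAC5 shRNA and did not pass (SE 0.05, adjusted p = 0.0557), so the MDM2 call rests on 1 probe set.

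GADD45A encodes a small stress sensor that binds PCNA and CDK1 and signals to p38 and JNK kinases. Its probe set 203725_at read 9.12, 9.18 and 9.20 on the HDAC5 shRNA arrays, against 10.38, 10.33 and 10.29 on their scramble arrays. The 3 scramble values were all more than a log2 unit above the 3 shRNA values. GADD45A fell by 1.17 (SE 0.04, 95% interval -1.27 to -1.07, adjusted p = 1.79e-07). On the LSD1 shRNA arrays it read 9.93, 10.11 and 10.68, against 10.32, 9.70 and 10.44 on theirs, and the groups overlapped. The LSD1 change of 0.09 (SE 0.26) had a 95% interval of -0.52 to 0.69. With 1 array left out it ran from -0.14, without scramble array B, the lowest of its group, to 0.24. The difference between responses was -1.25 (SE 0.27, adjusted p = 0.00513).

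GADD45B, a relative of GADD45A induced by NF-kappaB and TGF-beta signalling, was higher where GADD45A was lower. On 209305_s_at the values were 7.61, 7.40 and 7.53 with HDAC5 shRNA, against 7.26, 7.19 and 7.18 with its scramble, and GADD45B rose by 0.31 (SE 0.07, adjusted p = 0.00588). It also rose on 207574_s_at, by 0.25 (SE 0.06, adjusted p = 0.00989). The arrays did not overlap on these 2 probe sets. On 209304_x_at the change was 0.16 (adjusted p = 0.104) and on 213560_at 0.03 (adjusted p = 0.733), with overlap on both, and the mean of the 4 probe sets rose by 0.19 (SE 0.06, adjusted p = 0.0216). Under 1 estimate of spread over 12 arrays both calls were lost (adjusted p = 0.327 for 207574_s_at and 0.139 for 209305_s_at). With LSD1 shRNA the 4 changes ran between -0.36 and 0.02, none passed, and the arrays overlapped on all 4. The difference on 209305_s_at was 0.67 (SE 0.20, adjusted p = 0.0248), with adjusted p between 0.053 and 0.0627 without HDAC5 shRNA array 1 or 3 or without scramble array 2 or 3 of that experiment.

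BTG1 encodes an antiproliferative protein that binds the CCR4-NOT deadenylase. Its RNA was 10.35, 10.39 and 10.44 on 200920_s_at with HDAC5 shRNA, against 11.00, 11.06 and 10.95 with its scramble. On 200921_s_at it was 10.21, 10.43 and 10.47 with HDAC5 shRNA, against 10.97, 10.95 and 10.96 with its scramble. The arrays did not overlap on either probe set, and the HDAC5 shRNA arrays were the lower. BTG1 fell by 0.61 (SE 0.04, adjusted p = 4.9e-06) and by 0.59 (SE 0.06, adjusted p = 7.26e-05). With LSD1 shRNA the changes were 0.23 (SE 0.10, adjusted p = 0.28) and 0.17 (SE 0.10, adjusted p = 0.404), with overlap on both. The responses differed by -0.83 (SE 0.11, adjusted p = 0.00022) and -0.76 (SE 0.12, adjusted p = 0.000726).

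FAS, the receptor for FAS ligand that starts caspase-8 signalling at the membrane, had all shRNA arrays above all scramble arrays in both experiments. On 204780_s_at the values were 7.33, 7.35 and 7.51 with HDAC5 shRNA, against 6.73, 6.43 and 6.72 with its scramble. On 204781_s_at they were 6.86, 6.96 and 6.85 with HDAC5 shRNA, against 6.40, 5.97 and 6.18 with its scramble. All HDAC5 shRNA values lay above all scramble values on these and on the other 2 probe sets. FAS rose by 0.77 (SE 0.09, adjusted p = 0.000145) on 204780_s_at, 0.71 (SE 0.10, adjusted p = 0.000514) on 204781_s_at and 0.71 (SE 0.10, adjusted p = 0.00049) on 216252_x_at. The 1.03 on 215719_x_at (SE 0.11, adjusted p = 6.6e-05) starts from a scramble mean of 4.30, below the lower quartile of the arrays. Probe sets named _x_at can also bind other transcripts.

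In the LSD1 experiment 204780_s_at was 8.41, 8.38 and 8.13 with LSD1 shRNA, against 7.47, 7.92 and 7.57 with its scramble. On 204781_s_at the values were 8.06, 8.19 and 8.07 with LSD1 shRNA, against 6.96, 7.74 and 7.34 with its scramble. Scramble array B was the highest of its group on all 4 FAS probe sets, and all LSD1 shRNA arrays were still above it. On 204780_s_at, 204781_s_at, 215719_x_at and 216252_x_at, in that order, the FAS changes were 0.65 (SE 0.15), 0.76 (SE 0.19), 0.60 (SE 0.13) and 0.46 (SE 0.11), with adjusted p of 0.0624, 0.0846, 0.0544 and 0.0745, so none passed. The mean of the 4 probe sets rose by 0.62 (SE 0.13, adjusted p = 0.0477, adjusted over genes), and all 4 passed with 1 estimate of spread over the 12 arrays (adjusted p between 0.00492 and 0.0158). That estimate also draws on the arrays of the HDAC5 experiment, which spread less. On 215719_x_at the change passed at 0.72 without LSD1 shRNA array 3 (adjusted p = 0.0499). The HDAC5 response minus the LSD1 response was 0.12, -0.05, 0.43 and 0.25 in the same order, with 95% intervals of -0.27 to 0.51, -0.56 to 0.46, 0.04 to 0.82 and -0.09 to 0.59. None of these differences passed, and the intervals allow differences of up to 0.82 on the log2 scale.

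TNFRSF10B, which encodes the TRAIL receptor DR5, went the other way from FAS with HDAC5 shRNA. Its brightest probe set, 209295_at, was 10.49, 10.58 and 10.55 with HDAC5 shRNA, against 11.20, 11.18 and 11.17 with its scramble. It fell by 0.64 there (SE 0.04, adjusted p = 1.49e-06). Smaller decreases passed on 209294_x_at (-0.29, SE 0.07, adjusted p = 0.00834) and 210405_x_at (-0.23, SE 0.05, adjusted p = 0.00826), and the arrays did not overlap on any of the 3. With LSD1 shRNA 209295_at was 10.23, 10.74 and 10.13, against 10.36, 10.73 and 10.56 with its scramble, and the groups overlapped. The LSD1 changes were -0.13, -0.18 and -0.21, none of which passed. The responses differed by -0.46 on 209295_at (SE 0.19, adjusted p = 0.0959). Without LSD1 shRNA array 3 this became -0.58 and passed (adjusted p = 0.0301). In the other 14 of 15 alternatives it did not pass (adjusted p up to 0.195). With 1 array left out it ran from -0.58 to -0.27. On 209294_x_at and 210405_x_at the differences were -0.16 (95% interval -0.41 to 0.09) and -0.02 (-0.24 to 0.21).

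PMAIP1 encodes NOXA, a BH3-only protein that neutralises MCL1. On 204285_s_at it was 11.39, 11.35 and 11.34 with HDAC5 shRNA, against 11.45, 11.45 and 11.52 with its scramble. On 204286_s_at it was 10.06, 10.15 and 10.02 with HDAC5 shRNA, against 10.28, 10.14 and 10.34 with its scramble. The arrays were separate on the first probe set by little and overlapped on the second. PMAIP1 fell by 0.12 (SE 0.03, adjusted p = 0.0276) and 0.18 (SE 0.06, adjusted p = 0.0377). These 2 calls were the least stable of the 15: the first was lost without HDAC5 shRNA array 2 or 3 or scramble array 1 or 3 (adjusted p between 0.0519 and 0.0903), and the second without HDAC5 shRNA array 1 or 3 or scramble array 1 or 3 (between 0.12 and 0.147).

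With LSD1 shRNA, 204285_s_at of PMAIP1 was 11.96, 11.72 and 11.98, against 11.46, 10.83 and 11.27 with its scramble. On 204286_s_at it was 10.39, 10.29 and 10.47 with LSD1 shRNA, against 9.98, 9.34 and 9.93 with its scramble. All LSD1 shRNA arrays were above all scramble arrays, and scramble array B was the lowest of its group on both. The changes were 0.70 (SE 0.16, adjusted p = 0.0708) and 0.63 (SE 0.18, adjusted p = 0.106), and did not pass. Without scramble array B they were 0.52 (adjusted p = 0.139) and 0.43 (adjusted p = 0.162). The responses to the 2 shRNAs differed by -0.81 (SE 0.18, adjusted p = 0.00485) and -0.82 (SE 0.20, adjusted p = 0.00872).

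RNA quality was read from the ACTB control probe sets as 3′ signal less 5′ signal (log2), which was 0.68 ± 0.08 with HDAC5 shRNA and 0.90 ± 0.06 with its scramble (SD, n = 3 each, exact permutation p = 0.1, two-sided, the smallest that 3 against 3 allows). It was 1.43 ± 0.12 with LSD1 shRNA and 1.30 ± 0.06 with its scramble (SD, n = 3 each, exact permutation p = 0.2). For GAPDH it was 0.02 ± 0.02 with HDAC5 shRNA and 0.03 ± 0.00 with its scramble, and 0.04 ± 0.03 with LSD1 shRNA and 0.00 ± 0.01 with its scramble. Its part in the member values was not tested. A lower value in these bulk samples can be fewer cells with the transcript or less of it per cell, which cannot be told apart.

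Genes around the members were read as 6 lists, with the brightest probe set of each gene. On that footing, with p adjusted over all probe sets, 43.0% of the 11963 genes passed with HDAC5 shRNA and 4.45% with LSD1 shRNA. The medians of all genes were -0.017 and 0.007. Some genes stand in more than 1 list, such as CASP8 and BAX.

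Among other p53 targets, 13 of 33 measured genes rose with HDAC5 shRNA, 11 fell and 9 did not pass, with a median of 0.01. CDKN1A, the CDK inhibitor p21, was 8.92, 9.02 and 8.93 with HDAC5 shRNA, against 8.64, 8.76 and 8.63 with its scramble, and rose by 0.28 (SE 0.05, adjusted p = 0.00288). The stress cytokine gene GDF15 fell by 3.77 (SE 0.07, adjusted p = 5.28e-09) on 221577_x_at, while its other probe set, 221576_at, was at -0.29 (adjusted p = 0.0539). That other probe set was dim, with the mean of every group below the lower quartile of the arrays. On 221577_x_at GDF15 was at 1.93 with LSD1 shRNA (SE 0.59, adjusted p = 0.129), and the responses differed by -5.71 (SE 0.63, adjusted p = 7.92e-05). APAF1, the core of the apoptosome, rose by 1.35 (SE 0.11, adjusted p = 1.21e-05) on 1 of its 3 probe sets, the others being at 0.04 and 0.12. The probe set at 0.04 also lay below the lower quartile in every group. NINJ1, which acts in membrane rupture, fell by 0.92 (SE 0.07, adjusted p = 1.2e-05). With LSD1 shRNA 1 of the 33 passed, the repressor gene BCL6, which rose by 0.61 on 203140_at (SE 0.12, adjusted p = 0.0433), while its second probe set, 215990_s_at, was at 0.34 and did not pass (SE 0.11, adjusted p = 0.158). On 203140_at BCL6 fell by 0.77 with HDAC5 shRNA (SE 0.04, adjusted p = 9.61e-07), and the responses differed by -1.38 (SE 0.13, adjusted p = 2.36e-05). CDKN1A was at 0.57 with LSD1 shRNA (SE 0.16, adjusted p = 0.106) and its arrays did not overlap, at 9.62, 10.05 and 9.48 with LSD1 shRNA, against 9.05, 9.20 and 9.19 with its scramble.

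Of the p53 family and its regulators, 7 of 21 measured genes rose with HDAC5 shRNA and 3 fell, with a median of 0.06. The checkpoint kinase gene CHEK1 rose by 1.23 (SE 0.07, adjusted p = 1.89e-06), the damage kinase gene ATM fell by 0.35 (SE 0.07, adjusted p = 0.00312) and the acetyltransferase gene CREBBP rose by 0.32 (SE 0.08, adjusted p = 0.013). A second CREBBP probe set was at -0.11. With LSD1 shRNA TP53BP2, which encodes the p53-binding protein ASPP2, rose by 0.49 (SE 0.08, adjusted p = 0.0308) and was the only one of the 21 to pass. It was 9.90, 9.83 and 9.97 with LSD1 shRNA, against 9.45, 9.39 and 9.41 with its scramble.

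In the death receptor pathway 3 of 14 measured genes rose with HDAC5 shRNA and 3 fell, with a median of -0.08. FAIM, an inhibitor of FAS signalling, rose by 0.77 (SE 0.06, adjusted p = 1.14e-05), and FADD, the adaptor that joins FAS to caspase-8, rose by 0.42 (SE 0.05, adjusted p = 0.00011). TNFRSF1A, the TNF receptor, fell by 0.43 (SE 0.05, adjusted p = 0.000113). CASP8, the caspase itself, fell by 0.22 (SE 0.07, adjusted p = 0.0278) on 213373_s_at, with its second probe set at -0.14 (adjusted p = 0.0905). With LSD1 shRNA 0 of the 14 passed. TNFRSF10A, which encodes the other TRAIL death receptor, had no probe set with a single symbol.

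The BCL2 family, to which PMAIP1 and BBC3 belong, was split with HDAC5 shRNA, as 5 of 15 measured genes rose and 4 fell, with a median of 0.05. BAX, a pore-forming p53 target, rose by 0.49 (SE 0.05, adjusted p = 8.16e-05). BCL2, a survival gene, rose by 0.52 on 203685_at (SE 0.07, adjusted p = 0.000299), while its 3 other probe sets were at 0.10, 0.02 and -0.02 and did not pass. BCL2L2, another survival gene, fell by 0.42 (SE 0.04, adjusted p = 4.66e-05). None of the 15 passed with LSD1 shRNA.

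Relatives and partners of GADD45 and BTG rose in 8 of 14 measured cases with HDAC5 shRNA and fell in 3, with a median of 0.16. PCNA, the replication clamp to which GADD45A binds, rose by 1.43 (SE 0.07, adjusted p = 5.42e-07). GADD45GIP1, whose product binds GADD45 proteins, rose by 0.83 (SE 0.06, adjusted p = 6.97e-06) and the mitotic cyclin gene CCNB1 by 0.68 (SE 0.04, adjusted p = 1.16e-06). PCNA and CCNB1 are also genes of dividing cells. With LSD1 shRNA 0 of the 14 passed, at a median of -0.16.

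Of the ATF4-CHOP stress genes, 12 of 14 measured fell with HDAC5 shRNA, 1 rose and 1 did not pass, with a median of -1.13. The gene that rose was EIF2AK3 (0.36, SE 0.06, adjusted p = 0.00149), which encodes the stress kinase PERK, and ERN1, the gene of the sensor IRE1, was at -0.07 (adjusted p = 0.481). Both are named with their values known. ATF4 was 11.72, 11.62 and 11.68 with HDAC5 shRNA, against 12.77, 12.83 and 12.73 with its scramble, and fell by 1.10 (SE 0.04, adjusted p = 8.84e-08). DDIT3, the gene of CHOP, fell by 1.49 (SE 0.08, adjusted p = 1.43e-06). The largest decreases were those of CHAC1 (-2.84, SE 0.07, adjusted p = 2.28e-08), ASNS (-2.47, SE 0.04, adjusted p = 3.34e-09) and DDIT4 (-2.19, SE 0.07, adjusted p = 6.56e-08), which act in glutathione breakdown, asparagine synthesis and mTORC1 inhibition. Set side by side with no test, the mean of CHAC1 was 9.26 on the untagged scramble arrays and 6.42 with HDAC5 shRNA. It was 7.30 with LSD1 shRNA and 6.78 with its scramble. For ASNS the means in this order were 12.75, 10.28, 11.13 and 10.50. The untagged scramble set was the highest of the 4 groups in most of the list, but not for PPP1R15A, EIF2AK3 and ERN1. With LSD1 shRNA 0 of the 14 passed, ATF4 being at -0.09 (SE 0.19) and DDIT3 at 0.18 (SE 0.17), and the median was 0.04. LSD1 shRNA array 2 stood apart in several of these genes: ASNS was 10.27, 12.53 and 10.58 with LSD1 shRNA, against 9.70, 11.17 and 10.62 with its scramble, with a SE of 0.63 for its change. DDIT4 was 9.03, 11.37 and 8.66 with LSD1 shRNA, against 8.93, 11.02 and 9.56 with its scramble, where array B was the high one, with a SE of 0.80. Without LSD1 shRNA array 2, without scramble array B or without both, chosen after seeing the data, 0 of the 14 passed, 3, 2 and 4 had an unadjusted p under 0.05, and the medians were -0.08, 0.17 and -0.06. With all arrays of the LSD1 experiment, 4373 of 22215 probe sets had an unadjusted p under 0.05, and the shares without these arrays are not given here. The responses differed by -1.02 for ATF4 (SE 0.21, adjusted p = 0.00363) and -1.67 for DDIT3 (SE 0.20, adjusted p = 0.00015). The plot of the lists sets the members beside these 6 groups.

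**Figure D3:**
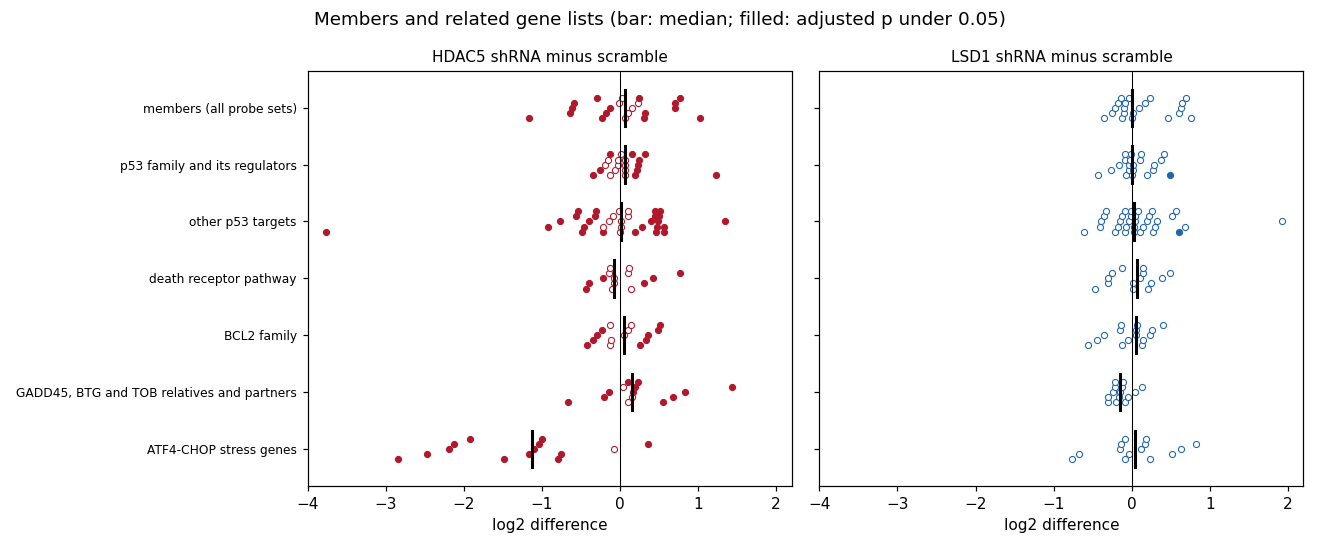
Log2 changes of the 21 member probe sets and of the genes of 6 related lists (1 probe set a gene) with HDAC5 shRNA, left, and LSD1 shRNA, right; filled points had an adjusted p under 0.05 and thick bars are medians. The members and 5 of the lists spread to both sides of 0 with HDAC5 shRNA, while the ATF4-CHOP genes have a median of -1.13.

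The pattern of GADD45A, the member with the largest change, was compared with that of 11962 other genes over the 12 arrays, after the mean of each experiment's scramble arrays was taken off. The closest were KLF4 (Pearson r = 0.97), PLCH2 (0.96) and KIZ (0.957). The HDAC5 shRNA arrays lie apart from the other 9 in GADD45A, so these r describe mostly that separation. No member passed with LSD1 shRNA, so no such search was made there.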

How the data were processed

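RNA of 12 MDA-MB-231 samples, 3 in each of 4 groups, was measured on 1 Affymetrix array each. The authors deposited log2 values, 1 for each probe set on each array, made with RMA in affy per the submitters' processing notes. RMA includes background correction, quantile normalization and a summary over the probes of each set, and compresses ratios at low signal. The sources used here give no versions of these tools. Medians by array of 6.58 to 6.64 in the HDAC5 experiment and 7.05 to 7.15 in the LSD1 experiment differ, so changes were taken within an experiment. All value columns were matched to samples, and 0 were left over.

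Of 22277 probe sets, 62 controls were left out and 22215 tested. The platform annotation gives 1 symbol for 19064 of these, several for 1043 and none for 2108, and 19052 symbols were matched to RefSeq (GRCh38.p14). Each shRNA was fitted with its own 3 scramble arrays in limma 3.58.1 (R 4.3.3, lmFit, eBayes with a mean-variance trend), with no filter on dim probe sets. Benjamini-Hochberg adjusted p under 0.05 over all probe sets was the threshold. The difference between responses is a contrast in 1 fit of the 12 arrays. SE are limma's, intervals are 95%, and SD are over 3 arrays. The fit was tested on simulated data. In gene lists a gene is represented by its brightest probe set on average.

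The genes named were the 9 members, the targeted genes, up to 3 changed genes with the largest change per list and comparison, a few key genes (CDKN1A, TNFRSF10A, CASP8, ATF4, DDIT3, and a further gene that is not reported here), and the 3 genes most like the top member. The members, the lists and the motifs were chosen with earlier results of these data known. The labels call the replicates biological and do not say what separates them, so p-values measure only the spread between these samples. The number of arrays limits the precision. Alternatives were another normalization, a filter on dim probe sets, no trend, each array left out, 1 fit of 12 arrays, the replicate number as a block, and 1 value a gene. Same-numbered arrays of the HDAC5 experiment did not deviate together (correlations -0.047, -0.205 and -0.144), so the block was an alternative only.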

Additional observations from a re-analysis of the deposited data

Results flagged for a closer look

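The response to HDAC5 shRNA differed from that to LSD1 shRNA on 7 of the 21 member probe sets (33.3%, against 26.9% of all probe sets), tested as the HDAC5 change minus the LSD1 change. It was higher for MDM2 on 217542_at (0.57) and for GADD45B on 209305_s_at (0.67). It was lower for GADD45A on 203725_at (-1.25), for BTG1 on 200920_s_at (-0.83) and 200921_s_at (-0.76), and for PMAIP1 on 204285_s_at (-0.81) and 204286_s_at (-0.82). On all 7 the HDAC5 change passed its own threshold and the LSD1 change did not. For PMAIP1 the LSD1 change was the larger, with all LSD1 shRNA arrays above their scramble arrays. These differences compare 2 experiments whose arrays share no sample, and a difference between the experiments and one between the shRNAs cannot be told apart.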

How the results depend on the processing

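No direction of a passing member change was reversed under any alternative run. Of the alternatives for single probe sets of the members, 217 of those for HDAC5 shRNA, 203 of those for LSD1 shRNA and 305 of those for the difference kept direction and side of the threshold. For HDAC5 shRNA, 16 lost the call, 14 of them of PMAIP1 and 2 of GADD45B, and 1 gained it (GADD45B 209304_x_at without HDAC5 shRNA array 2, adjusted p = 0.0343). For LSD1 shRNA 10 gained it, and for the difference 4 lost it, all of GADD45B 209305_s_at, and 2 gained it. With HDAC5 shRNA 8489 of 22215 probe sets passed, 5539 in 1 fit of 12 arrays, and 7109 to 8088 with 1 array left out. Out of 11963 genes, 5319 passed with 1 probe set a gene and 5130 with probe sets averaged by gene. The lists above use the main fit instead, with p adjusted over all probe sets, where 5148 of the 11963 passed. Of the 21 members 15 passed, 11 in the fit of 12 arrays (PMAIP1 lost at adjusted p = 0.584 and 0.413), and 13 to 15 with 1 array left out. With 1 probe set a gene all 7 genes passed, against 5319 of all 11963 genes. With LSD1 shRNA 847 passed, 3485 in the fit of 12 arrays. With 1 array left out it was 112 to 1062: 189 without LSD1 shRNA array 1, 230 without 3, 329 without scramble array A, 126 without B and 112 without C. Of the members 0 passed, against 7 in the fit of 12 arrays (all 4 of FAS, both of PMAIP1, MDM2 217542_at), 1 with quantile normalization (FAS 204780_s_at, adjusted p = 0.0488), 1 with dim probe sets left out (FAS 215719_x_at, 0.0474) and 0 to 1 with 1 array left out. The difference gave 5973 probe sets, 4846 to 6560 with 1 array left out, and 6 to 8 of the members. With the replicate block 7621 probe sets and 13 of the members passed for HDAC5 shRNA, the 2 of PMAIP1 being lost (adjusted p = 0.0917 and 0.0848), and no array correlated best with its own number. No paired analysis was possible for LSD1 shRNA because its arrays are numbered and its scramble arrays lettered. Low signal limits MDM2, 4 of whose 5 probe sets lie near or under the lower quartile.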

Other observations

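The scramble arrays of the 2 experiments differed in the members' values. Whether both experiments were normalized together is not stated, so these are levels set side by side with no test. The untagged scramble set minus the set tagged (LSD1) had a median of -0.41 over all probe sets. Relative to that median, BTG1 was at 1.00 and 0.90, GADD45A at 0.59, PMAIP1 at 0.69 and 0.92, and TNFRSF10B at 0.68, 1.04 and 0.46. The 4 FAS probe sets were between -1.05 and -0.62, those of GADD45B between -1.08 and -0.73, and MDM2 217542_at was at -1.34. The other 4 MDM2 probe sets, which are dim, were at 0.73, 0.16, 0.86 and 0.03. On every member probe set that passed with HDAC5 shRNA, this offset had the sign opposite to the HDAC5 change. GADD45A, for example, was at 0.59 here and changed by -1.17, and FAS 204780_s_at was at -0.62 and changed by 0.77. Both values use the untagged scramble arrays, and the part of their level in the HDAC5 changes was not tested.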
